A study of Mus musculus with 23 samples.

Results

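The effector cytokine and cytotoxic genes Ifng, Il2, Il21, Il4, Il13, Il17a, Prf1, Gzma and Gzmb were examined for CUT&Tag peaks in mouse CD4+ naive T cells, taken from spleen and from pLN, as the labels call the lymph nodes. They are 9 of 21887 protein-coding genes, chosen by name. For each of them all intervals of 4 deposited peak lists that lay over the gene span or within 20 kb of it were collected, which gave 2 of the 29404 intervals in the lists. In CUT&Tag an antibody directs a transposase to cut and tag DNA near its target. The targets were RNA polymerase II, H3K9me3, DNA-RNA hybrids (R-loops, S9.6 antibody) and DDX55, a DEAD-box RNA helicase.

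The RNA polymerase II, H3K9me3 and DDX55 lists were each named by 2 samples of genotype DDX55 KO and 2 of WT. The R-loop list was named by 8 samples, of which 2 DDX55 KO and 2 WT samples received 20 U of RNase H and 2 of each genotype had no treatment. No strain, age, allele design or Cre driver was given in the sources used here, and nothing said whether samples came from separate mice. Samples with and without RNase H named the same list, so an R-loop peak here is not known to be lost with the enzyme. Knockout and WT samples also shared each list, and the lists hold start and end positions only, so no genotype difference, RNase H effect, spread between samples or sequencing depth could be measured here.

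Naive CD4+ T cells have left the thymus and have not yet met their antigen. On stimulation of the T cell receptor, NFAT, AP-1 and NF-kappaB factors switch on Il2, which encodes the T cell growth factor, and later rounds of differentiation open the other cytokine genes in separate helper lineages. Interferon gamma (Ifng) is the cytokine of type 1 helper cells, Il4 and Il13 of type 2 cells, Il17a of type 17 cells, and Il21 of follicular helper and type 17 cells. Perforin (Prf1) forms pores in target cells, through which the serine proteases granzyme A and B (Gzma and Gzmb) enter. Killer T cells and natural killer cells are the usual source of these 3 proteins. H3K9me3 marks heterochromatin, and an R-loop is a structure in which RNA pairs with 1 DNA strand and displaces the other.

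The labelled cell type was checked against the RNA polymerase II list. A peak lay over 9 of 10 CD4 T cell marker genes, among them Cd4 and Cd3e, and over 5 of 6 naive markers, among them Ccr7 and Lef1. A peak lay over none of 2 CD8 T cell, 5 natural killer cell, 5 B cell and 6 myeloid marker genes, and over 1 of 4 erythroid genes, Klf1. Of all protein-coding genes 32.2% had one, so that counts in lists this short say little about the absence of other cells. A gene without a peak is a gene where none was called, and its transcription was not measured.

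The promoters of 5 of the effector genes are shown with that of Irf1, a transcription factor gene of the same cytokine cluster as Il4 and Il13, to set promoters without a peak beside 1 that lay wholly inside an RNA polymerase II peak. Irf1 was chosen for this after its values were seen. The sequences are the 150 bases before the most upstream transcript start in the table, from RefSeq on GRCm38.p6 (coordinates as mm10), written 5′ to 3′ in the direction of transcription. Capitals mark each CG dinucleotide and each TATAAA on the printed strand.
Ifng, chr10:118440896-118441045, plus strand: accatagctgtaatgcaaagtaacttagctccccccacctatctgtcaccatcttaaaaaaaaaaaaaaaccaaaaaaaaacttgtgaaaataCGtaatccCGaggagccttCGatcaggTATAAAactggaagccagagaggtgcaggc
Il2, chr3:37125955-37126104, minus strand: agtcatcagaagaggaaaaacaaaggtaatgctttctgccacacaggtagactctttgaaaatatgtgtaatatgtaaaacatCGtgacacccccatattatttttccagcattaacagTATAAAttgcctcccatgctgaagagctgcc
Il4, chr11:53618666-53618815, minus strand: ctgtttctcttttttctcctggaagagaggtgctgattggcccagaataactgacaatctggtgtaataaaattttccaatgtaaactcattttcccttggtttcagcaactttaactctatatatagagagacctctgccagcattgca
Il17a, chr1:20730755-20730904, plus strand: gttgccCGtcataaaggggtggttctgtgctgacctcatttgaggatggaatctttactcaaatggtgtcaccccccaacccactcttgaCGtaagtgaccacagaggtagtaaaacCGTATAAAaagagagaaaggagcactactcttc
Gzmb, chr14:56262335-56262484, minus strand: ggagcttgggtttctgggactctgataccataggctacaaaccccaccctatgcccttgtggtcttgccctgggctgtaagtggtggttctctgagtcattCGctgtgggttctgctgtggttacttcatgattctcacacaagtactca
Irf1, chr11:53769864-53770013, plus strand: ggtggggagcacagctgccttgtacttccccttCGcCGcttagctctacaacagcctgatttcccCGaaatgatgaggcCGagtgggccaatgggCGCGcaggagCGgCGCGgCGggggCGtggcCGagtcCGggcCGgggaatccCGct
The printed stretch held 3 CG in Ifng, 1 in Il2, 0 in Il4, 3 in Il17a and 1 in Gzmb, against 15 in Irf1. Irf1 is not typical of promoters with a peak. Its promoter window, as defined further below, held 32 CG. Windows that met an RNA polymerase II peak had a median of 24 and a 75th percentile of 30. The contrast with Irf1 is thus not that with a middle window of this group. TATAAA stood in the stretches of Ifng, Il2 and Il17a.

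No peak of any list lay over the span of an effector gene. For RNA polymerase II this was 0 of 9, where 32.2% of all protein-coding genes had a peak over the span, and 20.5% of the 7926 genes with spans of at most 10 kb, a class that holds all 9. For H3K9me3, R-loop and DDX55 it was also 0 of 9 each, against 5.40%, 1.59% and 0.324% of all protein-coding genes. A count of 0 of 9 is near such low shares.

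Within 20 kb, Prf1 and Il21 had 1 RNA polymerase II peak each, and the other 7 genes had none. That is 2 of 9, against 47.5% of all protein-coding genes (exact 95% interval 46.8 to 48.2, counting error only) and 36.9% of those with spans of at most 10 kb. No H3K9me3, R-loop or DDX55 peak lay within 20 kb of an effector gene, against 12.5%, 2.96% and 0.644% of all protein-coding genes. The pattern of the 7 genes, with no peak of any list in either window, was shared by 41.6% of all protein-coding genes. The pattern of Prf1 and Il21 was shared by 14.3%.

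**Figure D1:**
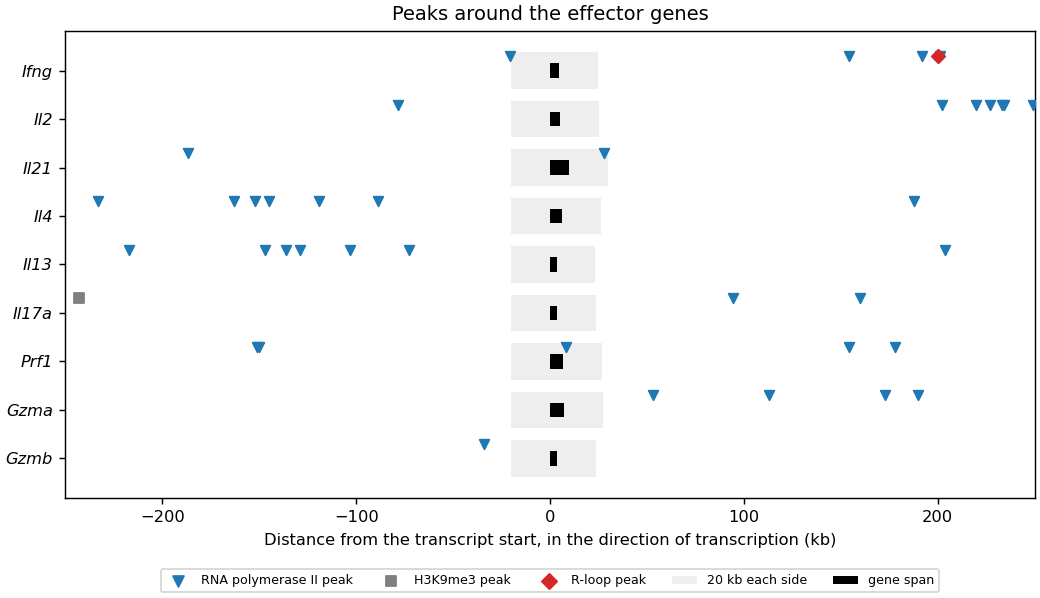
Peak midpoints (markers) by distance from the transcript start in kb, 1 row per gene, with transcription running to the right, the gene span in black and the 20 kb beside it in grey. Only Prf1 and Il21 have a peak in the grey field, and in Ifng the R-loop marker covers an RNA polymerase II peak at 196 kb from the gene.

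In every one of the 9 genes exactly 1 RNA polymerase II peak lay within 100 kb. All 9 thus had a peak in this wider window, against 67.6% of all protein-coding genes and 56.4% of those of at most 10 kb, and 16.5% of all protein-coding genes had exactly 1. Within 50 kb 5 of 9 had a peak, against 58.1%, and within 500 kb all 9, against 87.2%. No H3K9me3, R-loop or DDX55 peak lay within 50 or 100 kb of any of the 9. Of all protein-coding genes 19.2% had an H3K9me3 peak within 50 kb and 27.1% within 100 kb, while R-loop stood at 4.62% and 7.42% and DDX55 at 0.982% and 1.54%. The windows of 100 and 500 kb were chosen after the values were seen. Il2 and Il21 shared their peak, as did Il4 and Il13, so the 9 genes had 7 distinct nearest peaks. Of these, 6 were narrower than the list's median of 638 bp, 4 were among its narrowest 10%, and 5 lay over no annotated gene, as did 15.7% of the 10898 peaks of the list. As none of the 9 genes had a peak over its span, their nearest peaks could not lie over the genes themselves, so this count has no like background. For 5 genes the nearest peak lay upstream, for 4 downstream.

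**Figure D2:**
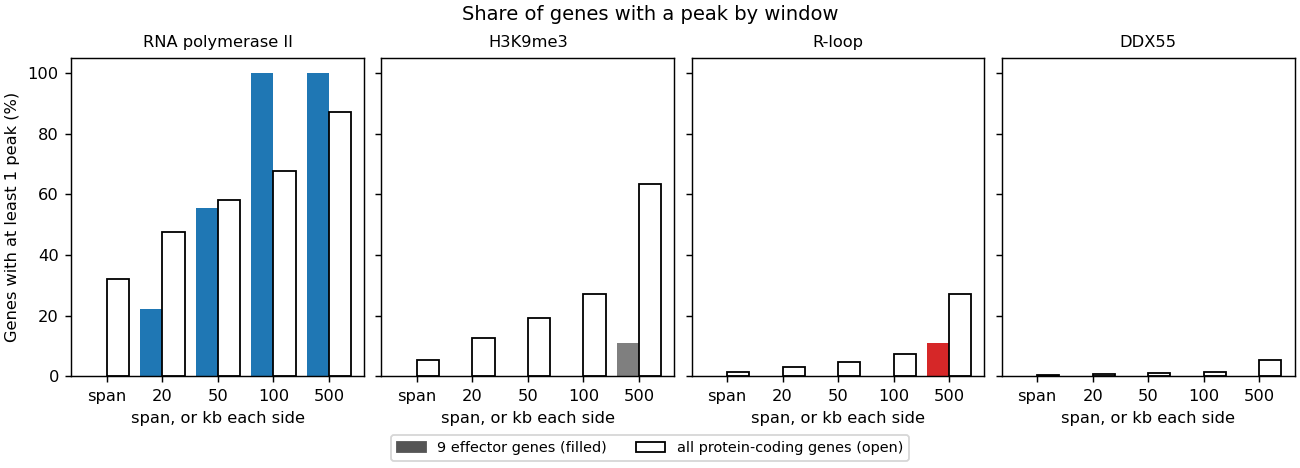
Percent of genes with at least 1 peak over the span or within 20, 50, 100 or 500 kb, filled for the 9 effector genes and open for all protein-coding genes. For RNA polymerase II the effector genes are at 0 of 9 over the span and reach 9 of 9 at 100 kb, where all genes are at 67.6%.

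Ifng (gene 15978, chromosome 10, 118441046 to 118445894, plus strand) had its nearest RNA polymerase II peak just outside the window. This peak was 368 bp wide, from 118420266 to 118420633, and ended 20.4 kb upstream of the gene, between Iltifb and Ifng. It lay over no annotated gene. Conserved enhancers upstream of Ifng are known in T cells, but their coordinates were not used here and the peak was not matched to one.

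Downstream of Ifng, a stretch with no protein-coding gene up to Dyrk2 held further RNA polymerase II peaks at 149, 187, 196 and 320 kb. The peak at 196 kb (118641915 to 118642403, 489 bp) lay wholly inside an R-loop peak of 2178 bp (118640232 to 118642409). This was the nearest R-loop peak to any effector gene, at 194 kb, and was wider than 94.1% of the R-loop list. Ifng was the member with an R-loop peak within 500 kb, where 27.3% of all protein-coding genes had one, and it had 2.

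Il2 (gene 16183, chromosome 3, 37120713 to 37125954, minus strand) and Il21 (gene 60505, 37222759 to 37232636, minus strand) lie next to each other on chromosome 3. Their shared RNA polymerase II peak, from 37204408 to 37204637, lay in the interval between them, over no annotated gene. It was 78.5 kb upstream of Il2 and 18.1 kb downstream of Il21. At 230 bp it was among the narrowest of the list, with 1.22% of peaks narrower. The next peak on the far side of Il2 lay 196 kb away in 4932438A13Rik, and on the far side of Il21 a peak of 2095 bp over Nudt6 and Spata5 lay 186 kb away. Adad1, the nearest protein-coding neighbour of Il2, and the long noncoding RNA gene Gm36168, within Il21, carried no peak.

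Il4 (gene 16189, chromosome 11, 53612460 to 53618665) and Il13 (gene 16163, 53631323 to 53634702), both on the minus strand, shared a peak at the boundary of Rad50 that faces Il5 and lies away from Il13. The peak covered 53706888 to 53707602 (715 bp), across this boundary at 53707319, and it was the single RNA polymerase II peak over Rad50. It lay 88.2 kb from Il4 and 72.2 kb from Il13. Rad50 encodes a DNA repair protein, and the locus control region of the type 2 cytokine genes is known to lie in the part of Rad50 on the other side, next to Il13. The coordinates of that region were not used here and no peak was matched to it. Kif3a, the kinesin gene on the other side of Il4, had none.

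The same cluster held wider peaks farther on. Irf1, which encodes interferon regulatory factor 1, carried a peak of 2301 bp (53769455 to 53771755), wider than 99.7% of the list and 135 kb from Il13. Il5, the eosinophil cytokine gene between Rad50 and Irf1, had no peak over its span but 2 within 20 kb. The peaks over no annotated gene at 53737212 to 53737706 (495 bp) and of 1437 bp over Mir7671 lay between Il5 and Irf1. Il5 and Irf1 were named after their values were seen.

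Il17a (gene 16171, chromosome 1, 20730905 to 20734496, plus strand) lay farthest from RNA polymerase II. Its nearest peak (20825219 to 20825535, 317 bp) was 90.7 kb downstream, between Mcm3 and Paqr8, and 1 further peak, over Paqr8, lay within 500 kb. Il17f, the neighbouring cytokine gene of the same family, lay 39.9 kb from the same peak and was named after its value was seen. Il17a was the member with H3K9me3 within 500 kb, where 63.5% of all protein-coding genes had a peak. Its 3 H3K9me3 peaks lay upstream in Pkhd1, a large kidney and liver disease gene. The nearest was 1026 bp wide and 242 kb away, and the others were 2698 bp and 1464 bp wide.

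Prf1 (gene 18646, chromosome 10, 61297751 to 61304684, plus strand) had the closest peak of all. It covered 61305951 to 61306190 (240 bp) and began 1267 bp beyond the 3′ end of the gene, 8.12 kb from the transcript start. Only 1.73% of the list was narrower, and the transcript start itself had no peak. The next peaks lay 147 kb downstream, at Eif4ebp2, and 150 kb upstream, at Sgpl1.

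Gzma (gene 14938, chromosome 13, 113093824 to 113100981, minus strand) lies inside the span of Cdc20b, a gene related to the cell cycle gene Cdc20. The nearest RNA polymerase II peak, 277 bp at 113047522 to 113047798, lay within Cdc20b and 46.0 kb downstream of Gzma. The next, of 953 bp, lay 106 kb away over Ccno, which encodes cyclin O. Gzmk, a further granzyme gene, had no peak within 20 kb and its nearest 124 kb away.

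Gzmb (gene 14939, chromosome 14, 56258836 to 56262334, minus strand) had its nearest peak 33.9 kb upstream. This peak, 574 bp from 56296273 to 56296846, lay outside the granzyme cluster, over no annotated gene, before Atp12a. The next was 314 kb away in Parp4. Gzmc, Gzmd, Gzme, Gzmf, Gzmg and Gzmn, the other granzyme genes of the cluster, had no peak of any list within 20 kb, and their nearest RNA polymerase II peaks lay 54.6 to 176 kb away.

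**Figure D3:**
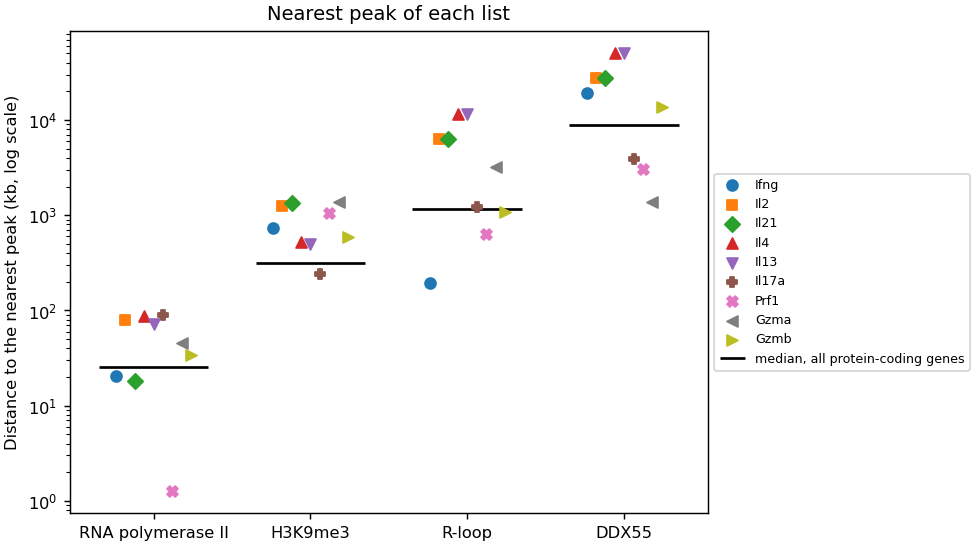
Distance from each effector gene to the nearest peak of each list in kb on a log scale, 1 marker per gene, with a line at the median of all protein-coding genes. For H3K9me3, 8 of the 9 markers lie above the line at 318 kb, where Il2 and Il21 share a peak, as do Il4 and Il13.

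Ordered by distance to RNA polymerase II, the genes ran Prf1 (1.27 kb), Il21 (18.1 kb), Ifng (20.4 kb), Gzmb (33.9 kb), Gzma (46.0 kb), Il13 (72.2 kb), Il2 (78.5 kb), Il4 (88.2 kb) and Il17a (90.7 kb). The median was 46.0 kb, against 25.5 kb over all protein-coding genes. With only 1 merged list per target these distances have no error, so neighbours in this order cannot be told apart by a test.

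H3K9me3 lay farther from the effector genes than from most genes. The nearest peak was 242 kb to 1.37 Mb away, with a median of 731 kb against 318 kb over all protein-coding genes. For Gzma, Il21 and Il2 it was 1.37, 1.35 and 1.25 Mb away, and 91.0%, 90.8% and 89.2% of protein-coding genes had one nearer. Il2 and Il21 shared their nearest H3K9me3 peak, as did Il4 and Il13, so the 9 distances are not separate cases. For Il17a 43.1% had one nearer. R-loop peaks lay 194 kb to 11.6 Mb away, with a median of 3.24 Mb against 1.15 Mb, but those of Ifng, Prf1 and Gzmb were nearer than the median, with 12.5%, 33.0% and 48.4% of protein-coding genes nearer still. DDX55 peaks lay 1.37 to 50.4 Mb away, with a median of 19.4 Mb against 8.84 Mb, and here Gzma, Prf1 and Il17a were nearer than the median, with 11.9%, 21.7% and 25.7% of protein-coding genes nearer still. Il2 and Il21 shared their nearest DDX55 peak, as did Il4 and Il13, which shared their nearest R-loop peak too. These distances are thus not separate cases either. The DDX55 list was the shortest, with 215 peaks on the assembled chromosomes. None of the 9 had a DDX55 peak within 500 kb, where 5.43% of all protein-coding genes did.

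The promoter windows of the effector genes were poor in CG. A window here is 250 bases before to 50 after a transcript start in RefSeq (GRCm38.p6), and 10 windows covered all 9 genes, with a pair for Il4. Each held 1 to 7 CG (median 4). The 5375 windows of protein-coding genes that met an RNA polymerase II peak had a median of 24, and the 15888 that met none a median of 8. Ifng had most, with 7, and Il4 fewest, with 1 and 2 in its windows. None of the 10 windows met a peak of any list, where 25.3% of 21263 windows met RNA polymerase II, 0.447% H3K9me3, 0.150% R-loop and 0.0611% DDX55. Low CG was not particular to them, since 38.5% of all windows held no more CG than that of Ifng.

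**Figure D4:**
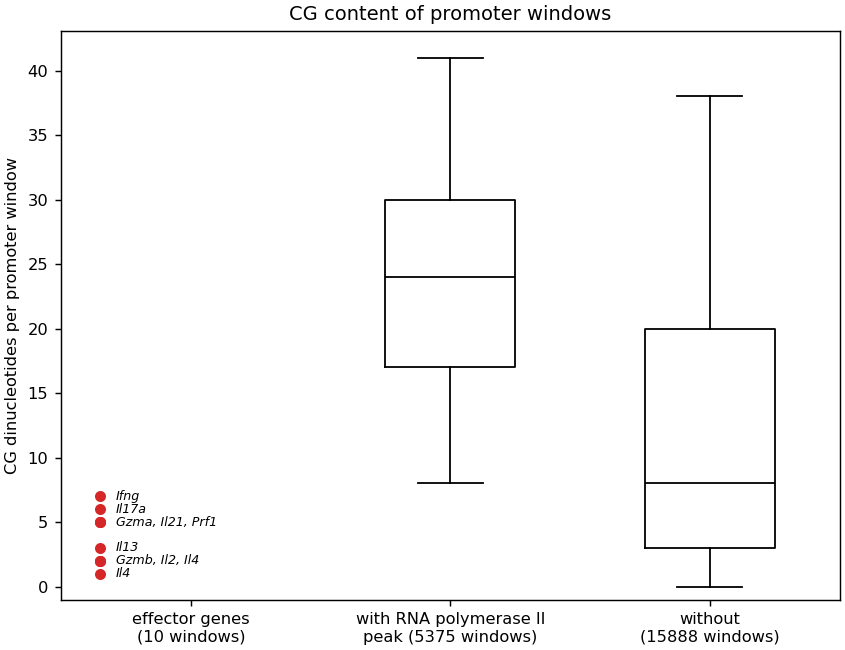
Number of CG dinucleotides per promoter window of 300 bases, as points for the 10 windows of the effector genes and as boxes (25th to 75th percentile, line at the median, whiskers at the 5th and 95th) for all windows with and without an RNA polymerase II peak, the 10 being also in the box without. The points lie between 1 and 7, below the lower edge of the box with a peak at 17.

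Short motifs were counted in the same windows on both strands. TATAAA, the core of the TATA box, stood in 4 of the 10 windows (Ifng, Il2, Il13 and Il17a), none of which met a peak. It stood in 14.9% of windows without an RNA polymerase II peak, the like background. Of all windows 12.6% held it, and 5.67% of those with an RNA polymerase II peak. In Il13 its reverse complement TTTATA overlapped it. TGANTCA, the AP-1 site, which reads the same on both strands, stood in the windows of Il17a and Gzmb. It stood in 8.23% of windows without an RNA polymerase II peak and in 6.99% of all windows. GGAAA, the NFAT core, stood in 7 of 10 windows, near the 59.9% of all windows, and was absent from those of Il17a, Prf1 and Gzmb. These are matches of letters and not measured binding sites.

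The genes around the effector genes in their pathways fell into unlike groups. Receptors of the effector cytokines had an RNA polymerase II peak over the span in 9 of 11 cases (81.8%), among them Ifngr1, Ifngr2, Il17ra, Il17rc, Il21r and Il2ra. Il2rg, which encodes the common gamma chain of the IL-2, IL-4 and IL-21 receptors, had a peak of 1030 bp and was named after its value was seen. The members without a peak were Il13ra1 and Il13ra2, which each encode a receptor chain for IL-13. Janus kinases, STAT factors and their feedback inhibitors had one in 11 of 14 cases, with 13 peaks over Jak1 and 4 each over Stat4 and Stat5b, and none over Cish, Jak3 and Socs2.

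Transcription factors known to act on these genes had an RNA polymerase II peak over the span in 20 of 28 cases, such as Batf (475 bp), Bcl6 (455 bp), Fosl2 (628 bp) and Ikzf1, with 9 peaks. Among those with none were Eomes, Gata3, Hlx, Ikzf3, Maf, Tbx21 and Zeb2. Tbx21 encodes the lineage factor of type 1 cells, and its nearest peak lay 72.6 kb away. Gata3 encodes that of type 2 cells, and its nearest peak lay 161 kb away. Tbx21 and Zeb2 were named after their values were seen. The share with a peak was 81.8%, 78.6% and 71.4% in these 3 lists, against 32.2% of all protein-coding genes, and no test was made of these shares.

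Other cytokine genes of T cells had a peak over the span in 5 of 27 cases (18.5%) and within 20 kb in 9 (33.3%). The shares of all protein-coding genes were 32.2% and 47.5%. Most of the 27 have spans of at most 10 kb, a class with shares of 20.5% and 36.9%. The counts are near those of this class, and nothing is read from them. The 5 with a peak over the span were Il16, the lymphotoxin genes Lta and Ltb, Tgfb1 and Tnf. Areg, Ccl3, Ccl4, Ccl5, Csf1 and Csf2 had none. Lta, Ltb and Tnf lie side by side, and their widest peaks were 465, 1337 and 687 bp. Other granzyme and killing genes had one over the span in 6 of 20 cases (30.0%), a share near the 32.2% of all protein-coding genes. They were Ctsc, Fasl, Lamp1, Rab27a, Srgn and Unc13d. Ctsc encodes the protease that activates granzymes, Srgn the proteoglycan that holds them in granules, and Rab27a and Unc13d factors that release granules, while Fasl encodes the ligand of the death receptor Fas, a separate route of killing. All 8 other granzyme genes of the list lacked a peak over the span.

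**Figure D5:**
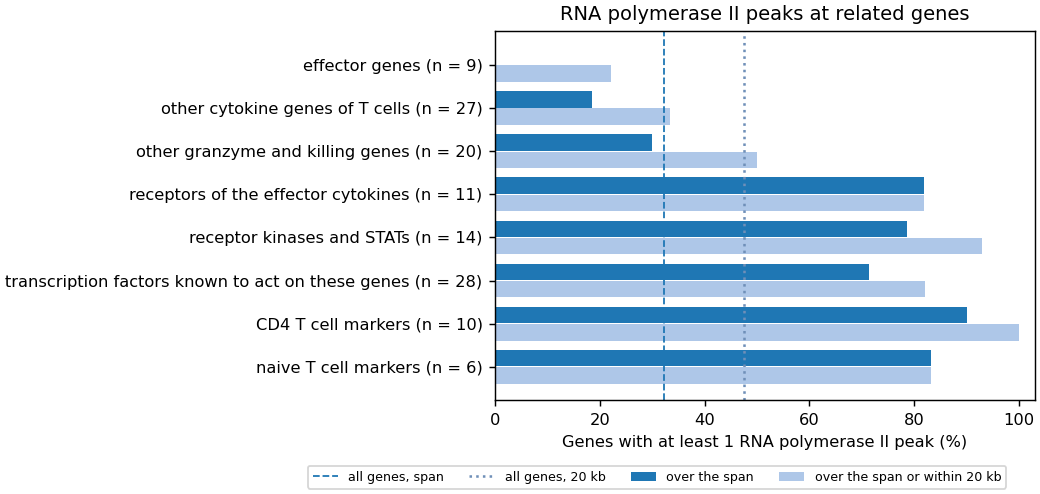
Percent of genes with an RNA polymerase II peak over the span (dark) or over the span or within 20 kb (light), by gene list, with lines for all protein-coding genes at 32.2% (span) and 47.5% (20 kb). The lines are not matched to the lists for gene length. The effector genes are at 0 and 22.2%, and receptors of their cytokines at 81.8% for both.

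Among the 100 genes of these 5 lists, 12 had the pattern of Prf1 and Il21, an RNA polymerase II peak within 20 kb but not over the span, and no other peak, against 14.3% of all protein-coding genes. Nearest to Prf1 in distance were Maf, Jak3, Ikzf3, Nkg7 and Cish. Among the nearest to Il21 were Osm, Lif, Stx11 and Il5. Likeness was the same presence in 4 lists and 2 windows, and then the smallest difference in distance to RNA polymerase II. A further 35 of the 100 had no peak of any list, like the other 7 effector genes, against 41.6% of all protein-coding genes. Both counts are below the background, and nothing is read from them.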

How the data were processed

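CUT&Tag was carried out on DDX55 KO and WT CD4+ naive T cells. The authors deposited 1 merged list of intervals per target. Its values are in another unit than reads or coverage, namely chromosome positions in bp, and no peak has a score. Per the submitters' processing notes, mm10 was the genome build, and Bowtie2 2.5.0, ChIPseeker 1.30.3, fastp 0.12.4, MACS3 3.0.0b1 and SAMtools 1.15.1 were used. Sequencing depth is unknown, and how peaks were called, filtered and merged over samples was not given in the sources used here. Not analysed here were the 2 HA profiles and 1 IgG profile (WT) and signal per sample.

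Peaks on chromosomes 1 to 19, X and Y were set against gene spans of RefSeq on GRCm38.p6, whose coordinates are those of mm10. A peak was counted where it shared at least 1 bp with the span or the window, and distances run between nearest coordinates (Python 3.11.15, numpy 2.4.6, pandas 2.3.3, scipy 1.17.1). They were checked with bedtools 2.31.1, which gave the same value for 36 of 36 nearest distances. Strand and transcript starts came from the RefSeq promoter table. Peak width stood in for the missing score. No test was made, because no value per sample exists and genes are not replicates. Shares of all genes are the background.

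The 9 genes, gene lists and windows were chosen with earlier results of these data known. Named were the 9 genes, their neighbours, the nearest peaks, and up to 6 genes per list with and without a peak over the span, in alphabetical order. All 138 list genes were found in the table, and some of them are not reported here. Other names were chosen after values were seen.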

Additional observations from a re-analysis of the deposited data

How the results depend on the processing

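The counts over gene spans were also 0 of 9 in all 4 lists when 50% of a peak or its midpoint had to lie inside. They were 0 with only the wider 50% of each list as well. These settings can only remove peaks, so a count of 0 could not change and nothing is read from it. The same holds for counts of 0 within 20 kb, also with 10 kb and with 20 kb around the transcript start. Of 57 alternative values, 41 stayed within 1.5 times or, for shares, within their interval, and 16 moved. Many of the 41 were thus fixed in advance. The 2 effector genes with RNA polymerase II within 20 kb became 0 with the wider 50% of the list, 1 with 10 kb, 1 with 20 kb on each side of the transcript start, 5 with 50 kb, and, with windows added after seeing the data, 9 with 100 kb and 9 with 500 kb. The 0 within 20 kb became 1 each for H3K9me3 and R-loop with 500 kb, a window added later. Background shares within 20 kb became 36.9% for RNA polymerase II, 13.5% for H3K9me3 and 1.73% for R-loop in genes of at most 10 kb, and 32.3% and 14.3% for RNA polymerase II and H3K9me3 over all annotated genes. With the wider 50% the median distance became 186 kb for RNA polymerase II, 5530 kb for R-loop and 31400 kb for DDX55. Removing peaks can only keep or lengthen a nearest distance, so the direction was fixed in advance. The cause was not tested. No paired analysis was possible because the lists hold no value per sample, and leaving out replicates could not be done for the same reason.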

Other observations

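The 9 effector genes had 7 distinct nearest DDX55 peaks, of which 5 met a peak of another list and 3 met peaks of at least 2 other lists. Of all 215 DDX55 peaks 81.4% met another list and 28.4% at least 2, so the 7 are too few to set apart. The DDX55 peak nearest to Gzma (chromosome 13, 111725564 to 111725772, 209 bp), 1.37 Mb away between Mier3 and Map3k1, lay inside the nearest H3K9me3 peak (353 bp) and inside an RNA polymerase II peak from 111725064 to 111726058. The DDX55 peak nearest to Il17a (chromosome 1, 24612371 to 24613603, 1233 bp), 3.88 Mb away over Gm10222, met peaks of all the other 3 lists. The DDX55 peak nearest to Il4 and Il13, 50.4 Mb away in Sfi1, met RNA polymerase II and H3K9me3 peaks. Those nearest to Prf1 and Gzmb met H3K9me3 alone, and those nearest to Ifng and to Il2 and Il21 met none. DDX55 KO samples also named the DDX55 list, and whether reads at these sites mapped uniquely was not checked. The overlaps are between intervals of merged lists and do not show that the targets occur there together.

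Rora, which encodes a factor of type 17 cells, differed from the other transcription factor genes of its list in carrying 8 R-loop peaks, the widest 1904 bp, with 2 RNA polymerase II peaks and 1 H3K9me3 peak of 795 bp. No other of the 28 had an R-loop or H3K9me3 peak within 20 kb. That is 3.57% of the list for each, against 2.96% of all protein-coding genes for R-loop and 12.5% for H3K9me3. For R-loop this is near the background, and nothing is read from the other genes having none. Rora spans a long stretch of chromosome 9, from 68653404 to 69388246, and it was chosen after its values were seen.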
